A study of Mus musculus with 10 samples.

Results

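Small extracellular vesicles (sEV) were collected from the plasma of C57BL/6J mice, and their small RNA was sequenced. The comparison covers 4 of the 10 libraries of the series, 2 titled Sed and 2 titled Exe. Its members are all 383 miRNAs with a read in any of these libraries, out of 436 listed for plasma; the other 53 had no read. Exe stands for exercise, and Sed is read as the group that did not train. The labels give every sample, Sed included, one training schedule (4 weeks, 2 daily sessions of 90 min each), so the schedule does not separate the groups. The titles do, and so do the descriptions of the plasma libraries, which share the tag wt and add ex for Exe. The 6 remaining libraries hold vesicles of brown adipose tissue (BAT) from the same strain and serve only for the closing comparison. The labels do not say whether the replicates are different animals, and the p-values therefore measure a spread between libraries that may be technical. The labels name no vesicle marker, and no gene other than miRNAs was counted.

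A mature miRNA guides a silencing complex to messenger RNAs, mainly through its seed, bases 2 to 8 from the 5′ end, so miRNAs that share a seed can bind the same sites. Each hairpin can give a miRNA from its 5p and its 3p arm, and usually one arm is kept. Blood vesicles carry miRNAs released by many tissues, with red cells, platelets, white cells, vessel lining and liver as large sources. In such bulk samples, fewer vesicles from a tissue and less of a miRNA per vesicle cannot be told apart.

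The sequences below are shown because miR-451a leads the Sed libraries and the let-7 family leads the Exe libraries. They are the mature forms of RefSeq (GRCm38.p6), which held an entry for 326 of the 383 miRNAs; the seed is in capitals.
miR-451a: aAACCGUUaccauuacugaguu
let-7a-5p: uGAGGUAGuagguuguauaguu
let-7b-5p: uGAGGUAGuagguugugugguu
let-7c-5p: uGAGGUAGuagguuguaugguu
let-7d-5p: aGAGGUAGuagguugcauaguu
let-7e-5p: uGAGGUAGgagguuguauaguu
let-7f-5p: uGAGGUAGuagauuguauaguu
let-7g-5p: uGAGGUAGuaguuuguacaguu
let-7i-5p: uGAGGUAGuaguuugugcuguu
miR-98-5p: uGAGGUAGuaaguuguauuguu
All 9 let-7 and miR-98 forms carry the seed GAGGUAG. Counted from the 5′ end and written from let-7a-5p, let-7c-5p differs by A19G, let-7b-5p by A17G and A19G, let-7f-5p by G12A, let-7e-5p by U9G, let-7d-5p by U1A and U16C, let-7g-5p by G12U and U18C, miR-98-5p by G11A and A19U, and let-7i-5p by G12U, A17G, U18C and A19U. Members that differ by 1 base may exchange reads where an aligner allows a mismatch, and the mismatches allowed are not stated. The table places miR-451a at chr11:78073186-78073207, plus strand. It places let-7c-5p at chr15:85706616-85706637 and let-7b-5p beside it at chr15:85707325-85707346, both on the plus strand, with a further locus for let-7c-5p. Together on the minus strand lie let-7a-5p at chr13:48538239-48538260, let-7f-5p at chr13:48537889-48537910 and let-7d-5p at chr13:48536078-48536099, with a further locus for let-7f-5p.

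A further set is shown because most of its members had large read differences between the groups. The exceptions are miR-191-5p, which overlapped in CPM and is shown as a partner arm, and miR-92b-3p, which rested on 1 library and is shown for its seed. The first 3 share a seed, as do the miR-10 forms, and the last pair are the 2 arms of a hairpin.
miR-25-3p: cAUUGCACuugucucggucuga
miR-92a-3p: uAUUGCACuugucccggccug
miR-92b-3p: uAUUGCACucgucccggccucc
miR-10a-5p: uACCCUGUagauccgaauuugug
miR-10b-5p: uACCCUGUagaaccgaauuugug
miR-34a-5p: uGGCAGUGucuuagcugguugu
miR-27b-3p: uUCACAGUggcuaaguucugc
miR-1198-5p: uAUGUGUUccuggcuggcuugg
miR-205-5p: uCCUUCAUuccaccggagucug
miR-200c-3p: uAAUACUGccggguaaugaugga
miR-191-5p: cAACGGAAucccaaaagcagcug
miR-191-3p: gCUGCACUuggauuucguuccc
From miR-10a-5p to miR-10b-5p the change is U12A, outside the seed. The seed of miR-25-3p, miR-92a-3p and miR-92b-3p is AUUGCAC.

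The Sed libraries totalled 1341678 and 1798169 miRNA reads and the Exe libraries 1209116 and 1766070. The table also holds a second whole number beside each read count, whose making is not stated; it is called the second value here and totals 405717 and 84021 in Sed and 858401 and 1078779 in Exe. The libraries thus held 3.31 and 21.4 reads per unit of the second value in Sed but 1.41 and 1.64 in Exe. The read classes differed as well: 76 and 94 miRNAs had 11 to 100 reads in Sed, against 22 and 5 in Exe. Of miRNAs with at least 100 reads in one Exe library, 34.3% (57 of 166) had 3 or fewer in the other, against 12.9% (15 of 116) in Sed. Log2 reads correlated at 0.80 between the Sed libraries, 0.77 between the Exe libraries and 0.64 to 0.68 across groups (Pearson, over 383 miRNAs, which are not independent). These properties separate the same libraries as the titles do, so they cannot be told apart from the groups; the calls made on the second value are given beside those on reads, with the second values of the miRNAs that the results turn on.

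**Figure D1:**
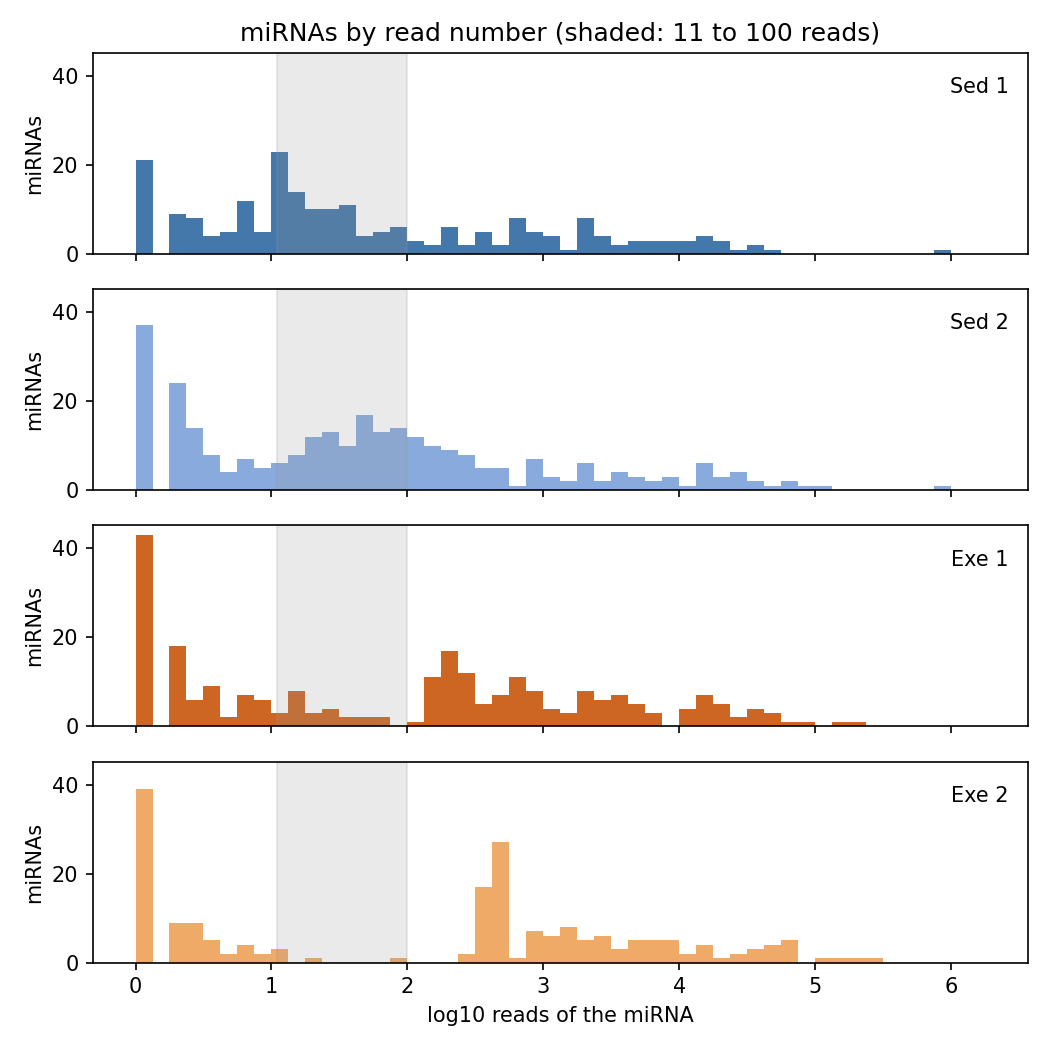
Number of miRNAs (y axis) by log10 reads (x axis) in each plasma library, with the range of 11 to 100 reads shaded. The Sed libraries fill the shaded range with 76 and 94 miRNAs, while Exe 1 holds 22 there and Exe 2 holds 5.

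**Figure D2:**
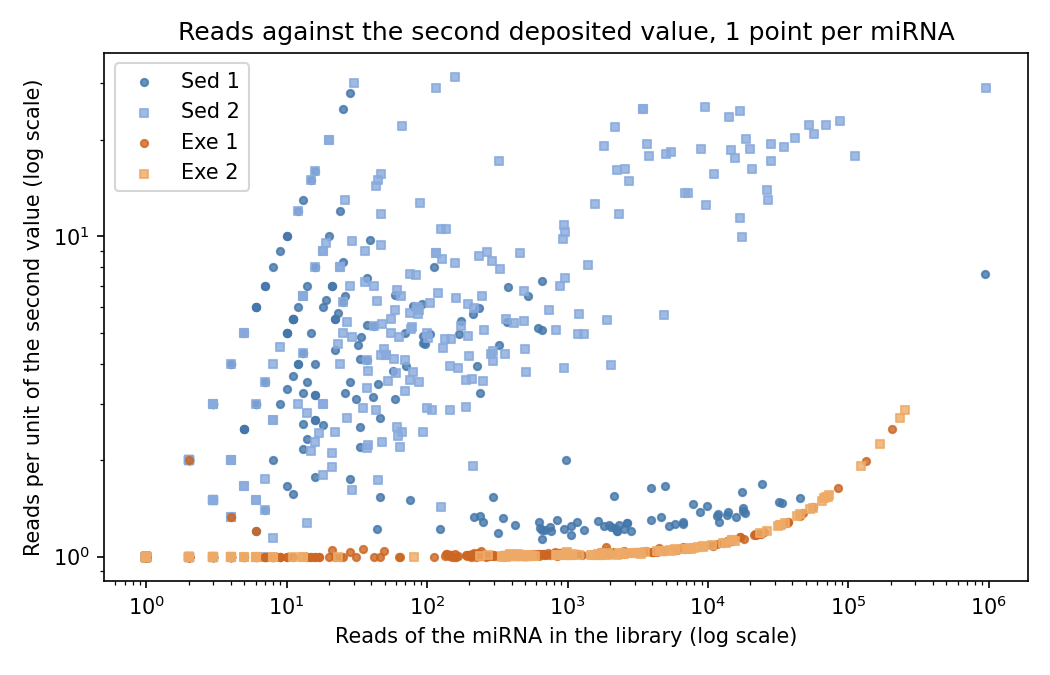
Reads per unit of the second value (y axis, log scale) against reads (x axis, log scale), with 1 point per miRNA and library. Both Exe libraries follow 1 curve near 1 that climbs with reads, while Sed points are spread, with medians of 4.33 and 5.17 among miRNAs of 11 to 1000 reads against 1.01 and 1.01 in Exe.

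The make-up of the plasma vesicle pool differed first in miR-451a, a miRNA made in maturing red cells and held at high levels in them. It took 69.8% and 52.8% of the reads in Sed and 11.1% and 13.1% in Exe, so both Exe libraries lay far below both Sed libraries. The means were 61.3% ± 12.05 and 12.1% ± 1.45 (SD, n = 2 each); a two-sided exact permutation test gave p = 0.333, the smallest that 2 against 2 allows. On the second value the shares were 30.2% and 38.9% against 7.85% and 7.92%, again with no overlap. The let-7 and miR-98 5p arms, whose family restrains growth genes and marks mature tissue, differed in the opposite direction, at 7.30% and 13.4% of reads in Sed and 38.2% and 40.7% in Exe (exact permutation p = 0.333). Since shares of one library add up to a whole, that family was also counted with miR-451a left out of the total: it then took 24.2% and 28.3% in Sed and 43.0% and 46.9% in Exe, and the groups stayed apart. On the second value, with miR-451a in the total, it took 17.04% and 15.6% in Sed and 31.2% and 34.2% in Exe.

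A further group by seed, AUUGCAC, took 0.252% and 0.496% of Sed reads and 4.33% and 7.54% of Exe reads, almost all of them miR-25-3p and miR-92a-3p. On the second value its shares were 0.666% and 0.619% against 4.99% and 6.83%. The seed ACCCUGU of miR-10a-5p and miR-10b-5p took 0.0478% and 0.0294% against 1.22% and 0.826%, and 0.122% and 0.127% against 1.60% and 1.27% on the second value. In the opposite direction went GGCAGUG, the seed of miR-34a-5p, at 1.34% and 1.57% in Sed and 0.287% and 0.110% in Exe, and UCACAGU, the seed of miR-27a-3p and miR-27b-3p, at 1.06% and 1.40% against 0.364% and 0.433% (2.66% and 1.97% against 0.501% and 0.685% on the second value). Shares by seed count only miRNAs with a RefSeq sequence, and seeds with a single such member separated the groups too. AUGUGUU of miR-1198-5p took 0.0791% and 0.00117% against 3.90% and 3.65%. UCACAUU, counted here for miR-23a-3p alone, took 0.0727% and 0.612% against 3.02% and 1.89%. GGCUCAG of miR-24-3p went the opposite way, at 2.41% and 3.88% against 1.23% and 1.78%. AACGGAA of miR-191-5p separated the groups on reads, at 1.37% and 1.11% against 3.74% and 2.01%, but overlapped on the second value. Groups overlapped on reads for AGCAGCA, the seed of the miR-15 and miR-16 family, at 3.63% and 2.93% against 2.23% and 4.30%, and for CGUACCG of miR-126a-3p, at 1.04% and 3.19% against 1.75% and 1.32%.

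**Figure D3:**
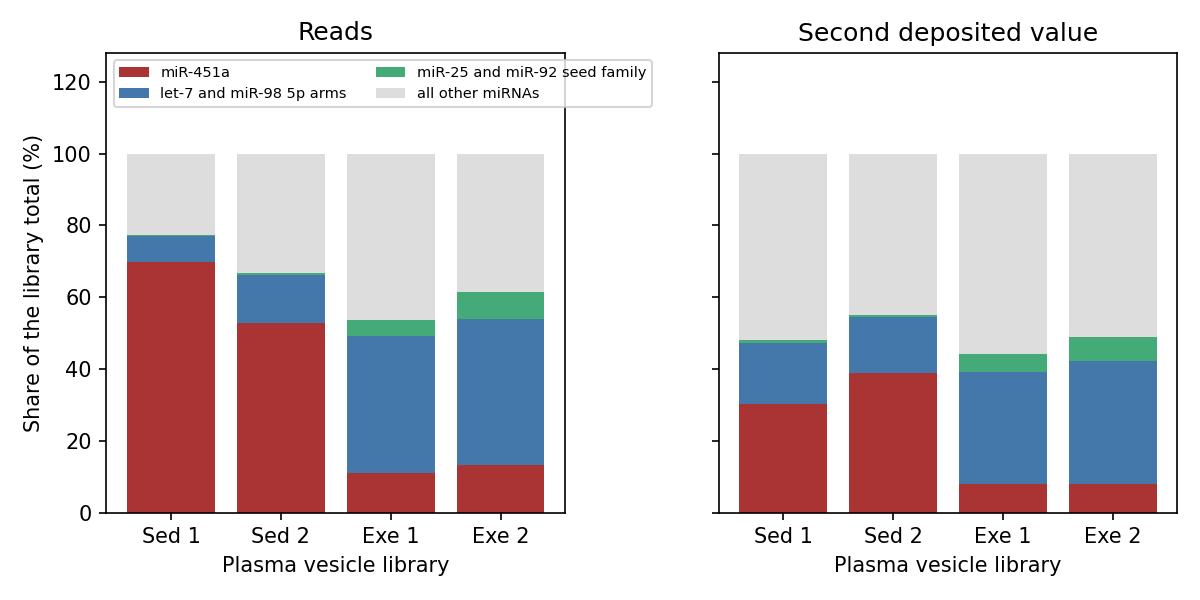
Share of each library's total (y axis, percent) taken by miR-451a, the let-7 and miR-98 5p arms, the miR-25 and miR-92 seed family and all other miRNAs, for reads (left) and for the second value (right). In both panels miR-451a takes a larger share of each Sed bar than of either Exe bar, and the let-7 and miR-25 families a smaller one.

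The ratio of miR-451a to miR-23a-3p is widely used as a check for red cell RNA in plasma, since miR-23a-3p is little affected by red cell leakage. Its log2 was 9.91 and 6.43 in Sed and 1.88 and 2.80 in Exe (exact permutation p = 0.333), and 7.98 and 5.54 against 1.23 and 1.69 on the second value. This ratio needs no scaling between libraries, and the groups did not overlap on either value. Both of its terms contributed: miR-23a-3p had 975 and 11005 Sed reads against 36508 and 33325 Exe reads. The number of miRNAs with a read was 259.5 ± 51.6 in Sed and 224.5 ± 38.9 in Exe (SD, n = 2 each), and the groups overlapped (exact permutation p = 0.667).

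Across all miRNAs, edgeR's quasi-likelihood test on the reads called 0 of the miRNAs tested at an adjusted p under 0.05 (0% called), and the smallest adjusted p was 0.0841, for miR-375-3p. At an unadjusted p under 0.05 there were 27 higher in Exe (14.8%) and 33 lower (18.1%), the shares against which the counts of each list below are to be read. The Exe and Sed libraries did not overlap in CPM (reads scaled to 1000000 per library with TMM factors) for 108 of those tested (59.3%), 52 higher (28.6%) and 56 lower (30.8%). The median log2 fold change of Exe over Sed was 0.32, with 97 values above 0 and 85 below. Relative to these TMM values, the median shift per miRNA was -0.92 with upper-quartile factors (102 below 0), 0.62 with library size alone (76 below) and -0.16 with DESeq2 (88 below). DESeq2 called 59 (32.4%), 33 higher (18.1%) and 26 lower (14.3%), and limma-voom 40 (22%), 15 higher (8.24%) and 25 lower (13.7%). The spread between replicates was large, with a biological coefficient of variation of 1.22. With Exe replicate 2 left out edgeR called 3, and 24 to 27 with any other library left out.

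On the second value edgeR called 11 of 164 (6.71%), of which 8 rose (4.88%) and 3 fell (1.83%) in Exe. Those that rose were miR-375-3p (log2 fold change 6.72), miR-1198-5p (4.95), let-7d-3p (4.38), miR-25-3p (3.44), miR-23a-3p (2.64), let-7b-5p and let-7c-5p (2.31 each) and let-7a-5p (1.85). Those that fell were miR-451a (-2.15), miR-34a-5p (-3.20) and miR-9b-3p (-9.22). DESeq2 on the second value called 33 (20.1%), 15 higher (9.15%) and 18 lower (11%), and limma-voom 10 (6.1%), 6 higher (3.66%) and 4 lower (2.44%). Directions on the reads were the same for all 11. Where values of single miRNAs follow, the log2 fold change is that on reads unless the second value is named.

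The smallest p on the reads was that of miR-375-3p, a miRNA of pancreatic islets and other endocrine cells. It had 123 and 75 Sed reads against 23766 and 43260 Exe reads, with second values of 101, 21, 20205 and 32361. Both Exe libraries stood far above both Sed libraries, at 13249 and 23149 CPM against 142.96 and 42.5 (log2 fold change 7.62 ± 1.12, SE, n = 2 each, adjusted p = 0.0841). It was called in 15 of the 17 settings run; the settings without a call were edgeR as designed and edgeR with identical miRNAs counted once. Log2 fold changes over all 17 ran from 6.05 to 8.84.

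For miR-1198-5p, whose function is little known, the difference was also large. It had 1061 and 21 Sed reads against 47182 and 64483 Exe reads, the Sed libraries being far apart from each other (5.61 ± 1.97, adjusted p = 0.115). It lies outside the rule for named miRNAs and was taken up for its call on the second value, where it had 908, 10, 34433 and 43194.

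Within the let-7 family the members differed in size and sign. The leading one, let-7c-5p, had 8741 and 27930 Sed reads against 205666 and 252301 Exe reads (3.26 ± 0.55, adjusted p = 0.0899). Its neighbour let-7b-5p had 3945 and 4849 against 56347 and 53532 (3.03 ± 0.65, adjusted p = 0.0899). For let-7a-5p there were 7811 and 26366 against 84008 and 166861 reads (2.50 ± 0.63, adjusted p = 0.0899). These 3 were above both Sed libraries in both Exe libraries, and each rose on the second value.

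The remaining let-7 5p arms had adjusted p-values of 0.46 to 0.78. The reads of let-7g-5p numbered 33713 and 87614 in Sed, against 21867 and 71270 in Exe (-0.82 ± 0.69, adjusted p = 0.46), and let-7i-5p had 17784 and 41563 against 37272 and 69319 (0.39). The loci that lie beside let-7a-5p gave 0.49 for let-7f-5p and 0.67 for let-7d-5p, with let-7e-5p at 1.86 and miR-98-5p at 0.47. Of the 9 tested 5p arms 8 lay above 0, 3 of them at an unadjusted p under 0.05 (over all tested 14.8% were higher), and the median was 0.67; with upper-quartile factors 4 lay above 0 and the median was -0.23. Within a library, reads of let-7c-5p per read of let-7g-5p numbered 0.259 and 0.319 in Sed and 9.41 and 3.54 in Exe (0.276 and 0.426 against 4.39 and 1.90 on the second value). That ratio does not depend on scaling, and it shows unequal change of 2 members with one seed, not which of them changed.

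The miRNA miR-25-3p is made from a cluster that drives cell division. Its seed family, whose tested members lie on different chromosomes, was higher in Exe in every tested member. For miR-25-3p there were 2511 and 5024 Sed reads against 36898 and 122512 Exe reads (3.90 ± 0.79, adjusted p = 0.0899). For miR-92a-3p there were 836 and 3820 against 13634 and 10627 (2.08 ± 0.89, adjusted p = 0.168). The third, miR-92b-3p, rested on 1 library, with 33 and 66 against 1868 and 4 reads. Without Exe replicate 1 its log2 fold change was -3.93. From the same cluster as miR-25-3p but with another seed, miR-93-5p overlapped between groups, at 4555 and 275 CPM in Sed and 2596 and 4523 CPM in Exe (0.56 ± 1.37).

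In the miR-10 pair, which sits in the Hox gene clusters, miR-10b-5p had 16 and 38 Sed reads against 3207 and 5360 Exe reads (6.85 ± 1.49, adjusted p = 0.0899; on the second value 5.40, adjusted p = 0.124). Its partner miR-10a-5p had 625 and 490 against 11604 and 9223 (3.51 ± 1.04, adjusted p = 0.0915; on the second value 3.10, adjusted p = 0.153). Both were higher in both Exe libraries. The wider list of miR-10, miR-99 and miR-125 forms had a median of 0.20 over 7 tested (-0.74 with upper-quartile factors), with 2 higher at an unadjusted p under 0.05 and 0 lower (14.8% and 18.1% over all tested). Its most abundant member, miR-99a-5p, was at -1.45 (11827 and 20752 against 10473 and 6559 reads), and miR-99b-5p at -1.99 (6609 and 18762 against 6038 and 2328).

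Other miRNAs with Exe reads far above Sed were miR-574-3p, with 41 and 44 against 4890 and 2356 reads (5.78 ± 1.53, adjusted p = 0.0899), and miR-676-3p, with 1 and 5 against 999 and 1069 (8.05 ± 2.25, adjusted p = 0.0899). In each, both Exe libraries were above 900 reads and both Sed libraries under 50.

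On the lower side stood miR-451a, with 936594 and 948848 Sed reads against 134144 and 232086 Exe reads (-3.03 ± 0.57, adjusted p = 0.0899). Reads of miR-34a-5p, a target of p53 that restrains brown fat formation, numbered 17882 and 28045 against 3463 and 1936 (-3.63 ± 0.76, adjusted p = 0.0899), and its second values were 12595, 1447, 3344 and 1891. As a share of the second value, its seed, shared with miR-449a-5p, took 3.11% and 1.74% in Sed and 0.390% and 0.176% in Exe, with no overlap. For miR-27b-3p, a vessel and fat miRNA, there were 12036 and 15574 against 1797 and 2942 reads (-3.15 ± 0.80, adjusted p = 0.0899; on the second value -2.90, adjusted p = 0.0733). These 3 were abundant in every library, so their values do not rest on low counts.

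**Figure D4:**
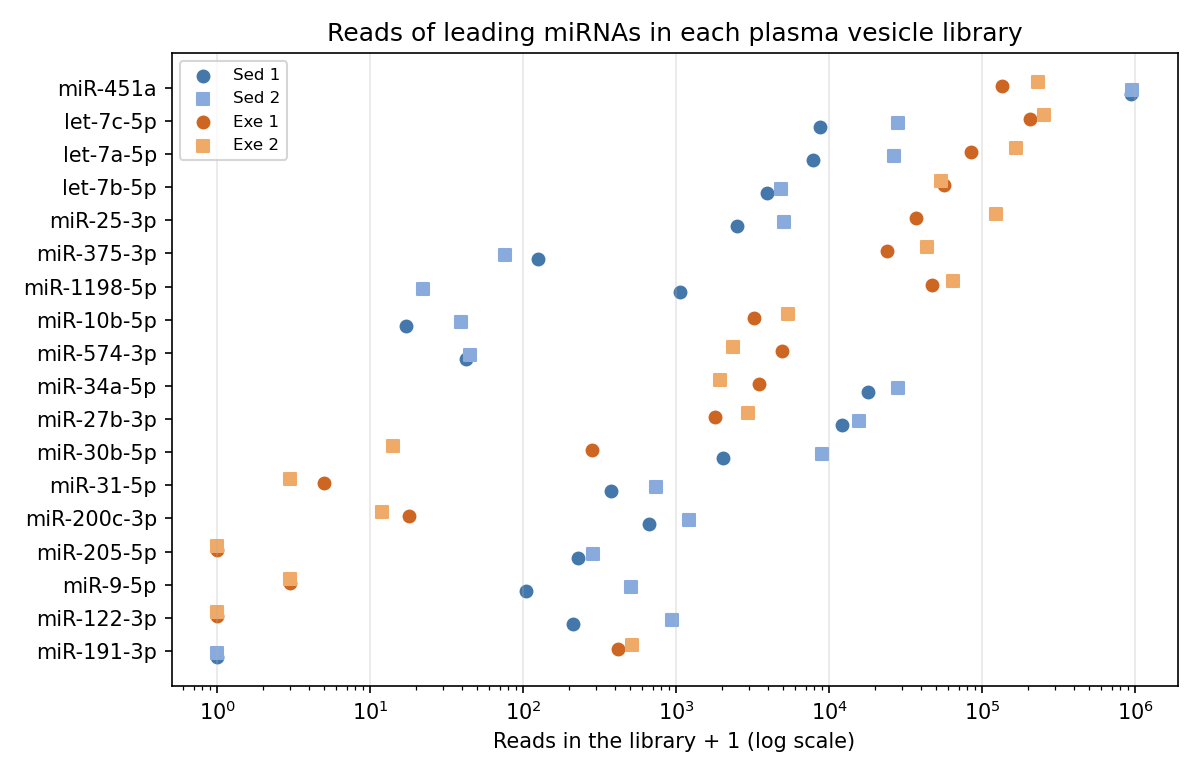
Reads plus 1 (x axis, log scale) of 18 miRNAs (y axis) in each plasma library, with Sed in blue and Exe in orange and 1 point per library. The Exe points lie to the right for let-7c-5p, miR-25-3p and miR-375-3p, to the left for miR-451a, miR-34a-5p and miR-205-5p, and at 0 reads for miR-205-5p and miR-122-3p.

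Ratios within a cluster bear on the vessel and platelet miRNAs, since miR-23a-3p, miR-27a-3p and one copy of miR-24-3p come from a common primary transcript. Reads of miR-23a-3p per read of miR-27a-3p were 0.453 and 1.14 in Sed and 14.0 and 7.08 in Exe, and 0.349 and 0.911 against 11.3 and 5.87 on the second value. Per read of miR-24-3p they were 0.0302 and 0.158 against 2.45 and 1.06. So reads of miR-23a-3p and miR-27a-3p were in different proportions in the 2 groups, at 2.37 ± 0.96 and -1.0 ± 0.96. The value of miR-24-3p was -1.62 ± 0.61, but its reads cannot be assigned to this transcript, since it has a further locus. Of the 11 tested miRNAs in the endothelial and platelet list, 2 were higher at an unadjusted p under 0.05 and 2 lower (14.8% and 18.1% over all tested), with a median of 0.13 (-0.05 with DESeq2 and -0.87 with upper-quartile factors). The vessel miRNA miR-126a-3p had 13914 and 57315 reads in Sed against 21193 and 23371 in Exe (-1.0 ± 0.63), and miR-191-5p, abundant in platelets, 18326 and 20022 against 45162 and 35584 (0.44 ± 0.62).

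Among the other red cell miRNAs, the arms of miR-486 did not follow miR-451a. The pair miR-486a-5p and miR-486b-5p, which share their reads and cannot be separated, had 2233 and 115 Sed reads against 17010 and 14954 Exe reads (2.72 ± 1.58, adjusted p = 0.279). On the opposite arms, miR-486b-3p had 5 and 22 against 2106 and 1759 reads (6.83 ± 1.88, adjusted p = 0.0899), and miR-486a-3p 0 and 0 against 237 and 892, at least 269-fold higher in Exe. Both groups of reads of miR-144-3p, from the same transcript as miR-451a, were small, at 0 and 29 against 8 and 2 (-1.57). In all, 4 of 6 tested red cell miRNAs lay above 0, all 4 of them arms of miR-486, and 2 lay below, miR-451a and miR-144-3p. The median was 2.72, the value of the inseparable miR-486 pair, which makes 2 of the 4. The summed share of the list followed miR-451a, at 70.1% and 52.8% in Sed and 14.1% and 14.99% in Exe.

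White cell miRNAs differed in both directions. For miR-150-5p there were 2827 and 961 Sed reads against 23000 and 32729 Exe reads (2.99 ± 1.04, adjusted p = 0.115; on the second value 2.66, adjusted p = 0.0639), and for miR-342-3p 0 and 45 against 2536 and 2975 (6.85 ± 2.53, adjusted p = 0.122). The summed leukocyte list took 1.44% and 1.22% of Sed reads and 4.02% and 4.00% of Exe reads. In the opposite direction, miR-181b-5p, which acts in lymphocyte development, had 311 reads over Sed against 25 over Exe (groups not overlapping, -4.12 ± 2.23, adjusted p = 0.259). Of 7 tested members, 2 were higher at an unadjusted p under 0.05 and 0 lower (14.8% and 18.1% over all tested), with a median of 1.65. The neutrophil and monocyte miRNA miR-223-3p had 0 and 1818 against 3998 and 1666 reads, so a Sed library lay within the Exe range, and its other arm miR-223-5p 4 and 0 against 207 and 417. The inflammation-linked miR-146a-5p was at -0.35 ± 0.70, and miR-142a-3p, a marker of all white cells, had 0 and 24 against 1 and 0 reads. Its other arm miR-142a-5p had 0 and 2 against 1 and 583, nearly all of them in Exe replicate 2.

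In the liver list all 5 tested members lay below 0 (4 with library size alone), with 2 lower at an unadjusted p under 0.05 (18.1% over all tested). The median of -2.75 is the value of miR-215-5p alone, which had 3 and 14078 against 444 and 1750 reads and stood at 7.38 without Sed replicate 2, 0.54 with limma-voom and 1.34 with the replicate block. The abundant member did not separate the groups: miR-122-5p, the main liver miRNA, had 24360 and 111603 Sed reads against 45542 and 67227 Exe reads (-0.58 ± 0.61, adjusted p = 0.54). Of miR-194-5p, found in liver and gut, there were 168 and 255 against 6 and 1 reads (-6.40 ± 2.34, adjusted p = 0.12). For miR-192-5p the counts were 656 and 7192 against 4047 and 4546, with a log2 fold change of -0.05 whose sign differed between settings. Muscle miRNAs showed no common direction: miR-1a-3p had 1962 and 9537 against 4334 and 7939 reads (-0.21), miR-499-5p 762 and 2167 against 673 and 1478 (-0.86), and miR-206-3p 26 and 0 against 3111 and 530 (6.07 ± 2.91, adjusted p = 0.204). The heart and muscle miRNA miR-133a-3p had 28 and 0 Sed reads, with all of its Exe reads in replicate 1 (1.23, or -7.65 without Exe replicate 1). None of the 4 tested muscle miRNAs reached an unadjusted p under 0.05.

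The epithelial list had the lowest median of the lists with 3 or more tested members. Of 11 tested, 8 lay below 0 and 7 of these had an unadjusted p under 0.05, with none higher. Over all miRNAs 18.1% were lower by that measure. The 7 are not independent: they include miR-203-3p and miR-203-5p, arms of the same hairpin, and the related miR-203b-5p. Members at 0 reads in Exe entered the test through their Sed reads alone. The median was -6.55, or -4.26 with miRNAs at 0 reads in Exe set to their bound and those at 1 to 3 reads to their ratio. The skin and gland miRNA miR-205-5p had 228 and 284 Sed reads against 0 and 0 Exe reads, at least 239-fold lower. Also lower were miR-200c-3p, which maintains the epithelial state, with 660 and 1209 against 17 and 11 reads (-6.55 ± 2.0, adjusted p = 0.0915; on the second value -6.46, adjusted p = 0.315), and miR-31-5p with 1111 reads over Sed against 6 over Exe (-7.95 ± 2.27, adjusted p = 0.0915). So were miR-96-5p, at -6.29 and with 0 reads in Exe replicate 2, and miR-203-3p, with 97 and 268 against 0 and 2. Its other arm miR-203-5p had 14 and 27 and the related miR-203b-5p 10 and 13, both at 0 in Exe and at least 19.1-fold and 10.7-fold lower. Not all epithelial miRNAs were low in Exe: miR-429-3p, of the same seed as miR-200c-3p, had 696 and 331 against 747 and 3078 reads, and miR-183-5p 14 and 173 against 1 and 1925. The summed reads of the list overlapped between groups, at 2203 and 3264 in Sed and 786 and 5560 in Exe.

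Neural miRNAs lay on both sides of 0. Lower in Exe were miR-9-5p, with 104 and 505 against 2 and 2 reads (-7.44 ± 2.31, adjusted p = 0.0915), miR-124-3p, the main neuronal miRNA, with 46 and 417 against 0 and 0 (at least 216-fold lower), and miR-338-5p with 12 and 65 against 0 and 0 (at least 35.9-fold lower). miR-9b-3p, outside the list and named for its call on the second value, had 236 and 2051 against 8 and 1 reads. Above 0 were miR-128-3p, one of the study's candidates, and miR-7a-1-3p, with 0 and 2 against 835 and 1637 reads, a ratio of 883 (95% counting interval 244 to 7293). The 8 tested had a median of -0.16 (0.37 with library size alone), with 2 higher and 3 lower at an unadjusted p under 0.05 (14.8% and 18.1% over all tested). The abundant miR-7a-5p had 1827 and 941 against 864 and 2472 reads (-0.56, with a sign that differed between settings). Outside the lists, miR-383-5p (20 and 55 reads in Sed) and miR-7689-3p (24 and 43) were at 0 in Exe, at least 35.0-fold and 31.3-fold lower. Several of these epithelial and neural miRNAs had 11 to 100 reads in a Sed library, the class that held only 22 and 5 miRNAs in Exe; the part of that gap in these values was not tested.

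Brown fat and adipocyte miRNAs had a median of -2.03 over 12 tested, with 1 higher and 3 lower at an unadjusted p under 0.05 (14.8% and 18.1% over all tested). Its abundant miR-22-3p had 17620 and 26564 against 14658 and 13464 reads (-1.21 ± 0.62, adjusted p = 0.231). The brown fat miRNA miR-193b-3p had 13 and 37 Sed reads against 0 and 0 Exe reads, and miR-196a-5p 253 over Sed against 0, at least 23.3-fold and 118-fold lower. A miRNA of energy-burning fat and muscle, miR-378a-3p, had 6695 and 2743 against 1798 and 468 reads (-2.90 ± 1.33, adjusted p = 0.192). In the other direction miR-328-3p had 13 and 109 against 3258 and 1199 reads (4.99 ± 1.79, adjusted p = 0.116). Stromal miRNAs gave a median of -0.96 over 6 tested, with miR-21a-5p at -0.81, miR-143-3p at -1.10, miR-199a-5p at 2.93 and the shared miR-199a-3p and miR-199b-3p reads at -2.12. The smooth muscle miRNA miR-145a-5p rested on 1 library, with 9 and 61 against 631 and 23 reads (3.01, or -0.65 without Exe replicate 1).

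The miR-30 family was divided among its members. Higher in Exe were miR-30d-5p, miR-30c-5p (18 and 49 against 255 and 477 reads) and miR-30a-3p (3.53). Lower were miR-30b-5p, with 2024 and 8948 against 280 and 13 reads (-5.51 ± 1.86, adjusted p = 0.107; on the second value -4.96, adjusted p = 0.124), and miR-30e-5p, with 663 and 30 against 3 and 1 (-8.38 ± 2.96, adjusted p = 0.115). The 3 tested miR-29 forms, repressors of collagen genes, lay below 0, at -6.45 for miR-29b-3p, -2.93 for miR-29c-3p and -0.66 for miR-29a-3p, all with an unadjusted p above 0.05. The miR-15 and miR-16 family had a median of -0.12 (0.76 with library size alone), with 0 of 6 at an unadjusted p under 0.05, and its abundant member miR-16-5p had 44926 and 52384 against 25213 and 72601 reads. Among its smaller members, miR-322-5p had 16 and 37 against 364 and 343 reads (3.28). The others turned with 1 library: miR-15a-5p, with 34 and 197 against 643 and 4 reads, was at 1.25 but at -4.88 without Exe replicate 1. Likewise miR-195a-5p, with 1308 and 1 against 24 and 0, was at -6.81 but at 3.43 without Sed replicate 1, and miR-15b-5p, with 2342 and 64 against 629 and 3000, at -0.50 but at 4.87 without that library. Of the imprinted Dlk1-Dio3 cluster, 11 miRNAs were tested, with 2 higher and 2 lower at an unadjusted p under 0.05 (14.8% and 18.1% over all tested). Among them miR-127-3p had 295 and 967 against 6692 and 5766 reads (2.94), miR-341-3p 4 over Sed against 501 over Exe, miR-433-3p 16 and 48 against 1 and 1, miR-376a-3p 11 and 43 against 0 and 0, and miR-379-5p 15 and 2244 against 198 and 2 (-3.53, or 1.61 without Sed replicate 2).

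The 3 candidates that the study took into heart cells were chosen by it on samples of this series, so their direction is not independent evidence. For miR-30d-5p there were 237 and 130 Sed reads against 1934 and 7602 Exe reads (3.88 ± 1.48, adjusted p = 0.128). For miR-128-3p, enriched in brain, there were 11 and 251 against 2526 and 3330 (4.36 ± 1.76, adjusted p = 0.146), and for miR-125b-5p, a fibroblast and stem cell miRNA, 70 and 460 against 1994 and 521 (2.02 ± 1.74, adjusted p = 0.464). All 3 had higher CPM in both Exe libraries than in either Sed library, as did 28.6% of all tested, and none passed in edgeR on reads or on the second value. Second values were 177, 29, 1897 and 7179 for miR-30d-5p, 7, 71, 2459 and 3257 for miR-128-3p and 14, 52, 1959 and 517 for miR-125b-5p. As a share of the second-value total miR-125b-5p overlapped between groups, at 0.00345% and 0.0619% in Sed against 0.228% and 0.0479% in Exe. Of the 17 tested miRNAs in a list of those followed in blood during exercise, 1 was higher and 2 lower at an unadjusted p under 0.05 (14.8% and 18.1% over all tested); the median was -0.35, or 0.26 with library size alone. miR-20a-5p of that list, a product of the miR-17-92 cluster, had second values of 9 and 15 in Sed against 1 and 1 in Exe, miR-19b-3p of the cluster was at -1.02 (0.30 without Exe replicate 2), and miR-221-3p had 240 reads over Sed against 12 over Exe (-4.82).

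**Figure D5:**
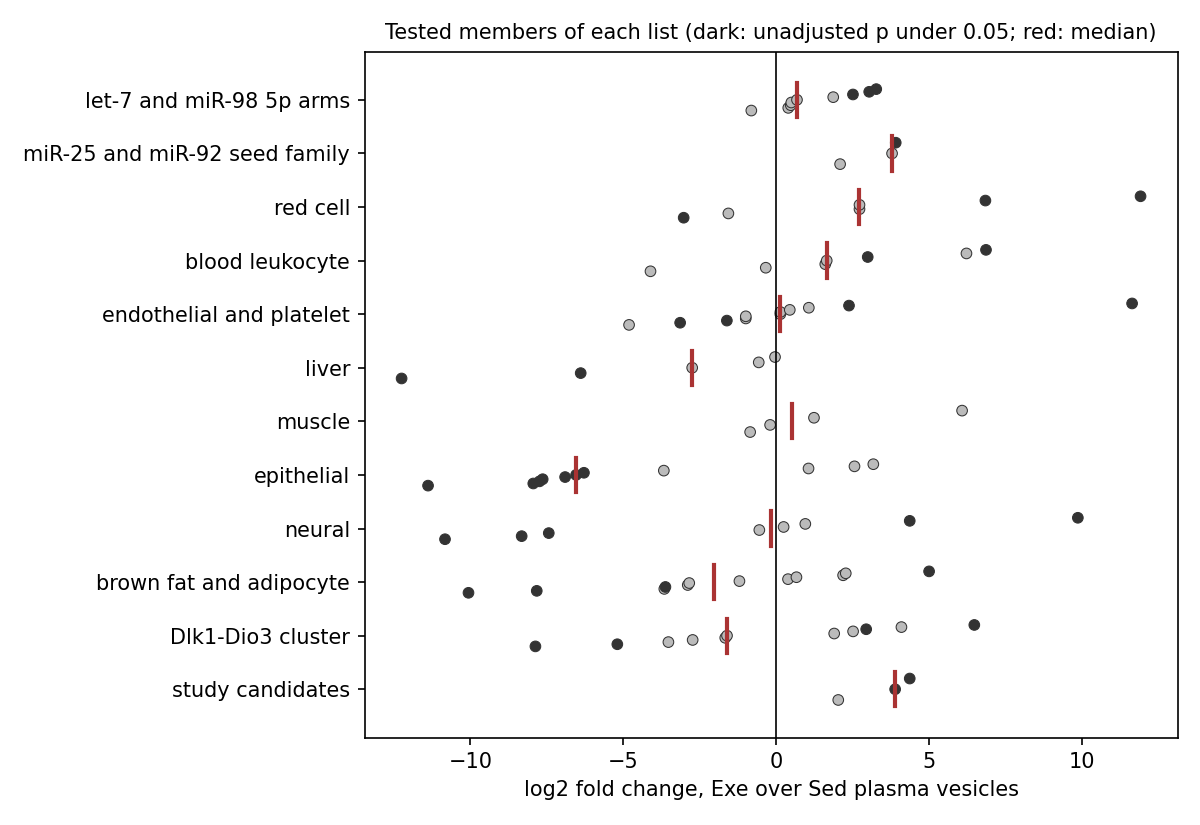
Log2 fold change of Exe over Sed on reads (x axis) for the tested members of 12 lists (y axis), 1 point per miRNA, with dark points at an unadjusted p under 0.05 and a red line at the median. The epithelial list has its median at -6.55, the let-7 5p arms at 0.67 and the miR-25 and miR-92 seed family at 3.78; fitted values beyond 9 in size belong to miRNAs at or near 0 reads in a group and are not bounds.

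There were 35 miRNAs at 0 reads in both libraries of a group and at least 100 reads over the other. Of these, 25 were at 0 in Sed, but 20 of the 25 had all their reads in 1 Exe library, 12 in Exe 1 and 8 in Exe 2. Only miR-191-3p and miR-486a-3p had at least 100 reads in both Exe libraries, while miR-181d-5p had 1872 and 1 and miR-202-5p 678 and 80. The 10 at 0 in Exe had reads in both Sed libraries, and 2 of them, miR-205-5p and miR-122-3p, at least 100 in each. A count of 0 allows a share of up to 0.000248% in Exe 1 and 0.000170% in Exe 2, by counting error alone.

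The arms of a hairpin come from the same precursor, so their proportions within a library are free of scaling. Among 31 hairpins with at least 100 reads of both arms together in every library, the share of the arm with fewer reads was higher in both Exe libraries for 5 and lower for 4. It did not separate the groups for 22, some of which, such as miR-34a, had 0 reads of that arm in every library. With 2 libraries against 2, full separation has an exact permutation p of 0.333. Some hairpins would thus separate without any difference between groups, and the counts are descriptions. The 2 arms of miR-191 printed above illustrate the first kind: miR-191-3p had 0 of 18326 and 0 of 20022 reads in Sed, which allows up to 0.0164% and 0.0150%, and 414 of 45576 (0.908%) and 509 of 36093 (1.41%) in Exe. The reverse was seen for the main liver hairpin, where miR-122-3p took 0.863% and 0.830% in Sed and 0 of 45542 and 0 of 67227 reads in Exe (up to 0.00659% and 0.00446%). All of the Exe reads of this hairpin thus came from miR-122-5p.

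Larger differences in arm share were seen in the let-7d and miR-151 hairpins. The let-7d-3p arm took 0.510% and 6.06% in Sed and 45.1% and 14.0% in Exe, and rose on the second value (4.38). The miR-151-3p arm took 1.40% and 0.171% against 21.4% and 70.8%. For miR-199a-5p the shares were 1.22% and 0.516% against 33.6% and 20.6%, though reads of its partner are shared with miR-199b-3p. The replicates differed by several-fold in most of these, and 95% exact intervals cover counting error only: 44.5% to 45.6% and 13.7% to 14.3% for let-7d-3p in Exe.

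A sequence property was compared with the fold change. Across 149 tested miRNAs with a RefSeq sequence, the GC content and the log2 fold change correlated at 0.24 on reads, and at 0.24 across 130 on the second value; miRNAs are not independent and no test is given. The median GC content was 47.6% among 21 higher and 42.9% among 27 lower at an unadjusted p under 0.05, against 45.5% over all 149.

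The last question was whether the difference in plasma vesicles was unlike that in BAT vesicles. In a joint edgeR fit of all 10 libraries, the effect in plasma minus the effect in BAT passed an adjusted p of 0.05 for 68 of 234 miRNAs (29.1%), 29 higher in plasma (12.4%) and 39 lower (16.7%). With upper-quartile factors the split was 20 higher and 63 lower, and with library size alone 51 higher and 27 lower. That fit pools the spread of both sources, and with limma-voom and a spread for each source 25 passed (10.7%), 14 higher (5.98%) and 11 lower (4.7%). Without Exe plasma replicate 1 the joint edgeR fit called 119. The vesicle source, the table and a possible batch cannot be told apart here.

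The 3 let-7 members that rose on the second value had opposite signs in the 2 kinds of vesicle. The values for each kind come from separate fits and the differences from the joint fit. Each fit has its own scaling, so a difference need not equal the plasma value minus the BAT value. In plasma let-7c-5p was at 3.26 and in BAT at -1.61 (adjusted p = 0.0107), a difference of 4.37 ± 0.72 (adjusted p = 0.00264), and let-7b-5p was at 3.03 and -1.52, a difference of 4.26 ± 0.62 (adjusted p = 0.00264). For let-7a-5p the values were 2.50 and -1.10, a difference of 2.99 ± 0.64 (adjusted p = 0.00665). The brown fat miRNA miR-193b-3p was at 0 reads in Exe plasma but rose in BAT vesicles (1.17, adjusted p = 0.0167, with 3825 reads over Sed and 9351 over Exe), where edgeR called 19 miRNAs higher (9.55%) and 26 lower (13.1%). For miR-27b-3p the difference was -4.02 ± 0.64 (BAT 0.45) and for miR-10b-5p 6.06 ± 1.05 (BAT 0.28). Like miR-193b-3p, the remaining ones among the 10 of smallest p rest on a plasma group at or near 0 reads. Their fitted differences thus depend on the prior count. Of these, miR-31-5p, miR-203-3p and miR-122-3p were lower, and miR-486a-3p and miR-486b-3p higher, in plasma than in BAT. In BAT, miR-122-3p had 0 reads over Sed and 4 over Exe, which leaves its BAT effect undetermined.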

How the data were processed

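Small RNA from plasma vesicles was counted per mature miRNA in 2 Sed and 2 Exe libraries. The authors deposited 1 plasma table with a read count and a further whole number, the second value, for each miRNA and library, per the file headers; both are whole-number counts. How the second value was made, and the counting program, annotation release, strand use and filters, are not stated in any source used here. Bowtie 0.12.2 and the builds mm8 and mm9 are named, with no role, in the submitters' processing notes. Of the BAT columns, 6 with scaled values were not used.

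Counts were used as deposited, with R 4.3.3, edgeR 4.0.16 (TMM factors, filterByExpr, robust quasi-likelihood test, Benjamini-Hochberg adjustment over all miRNAs tested), limma 3.58.1 and DESeq2 1.42.0. Adjusted p-values without a named tool are edgeR's. The SE of a log2 fold change is its size over the square root of F. The plasma test used the 4 plasma libraries, and the difference from BAT used a joint fit of all 10 over 394 miRNAs listed in both tables. Shares and ratios were compared by exact permutation tests with scipy 1.17.1 (Python 3.11.15); plots used matplotlib 3.10.9. Folds against a group at 0 reads are bounds against 3 reads over the group, and ratios with 1 to 3 reads carry 95% exact intervals; both cover counting error only, since PCR copies are not independent molecules. The test scripts were run on simulated counts whose spread was below that of the plasma libraries, so the simulation does not show how the tests perform on them.

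The members, lists and tests were chosen with earlier results of these data known, and list counts are descriptions. The 21 lists are those named in the report, with the endocrine islet list (miR-375-3p alone was tested), the let-7 and miR-98 3p arms (let-7d-3p alone) and the miR-17-92 and miR-106 clusters (median 0.56 over 5, or -0.16 with upper-quartile factors). Named miRNAs are the 10 of highest mean CPM, the 12 of smallest unadjusted p in each direction, those at 0 reads in a group with at least 100 in the other (mostly given as counts), up to 4 of smallest p and the 2 most abundant of each list, the candidates, and the 10 of smallest p for the difference from BAT, with the partner arms. Sequences were matched by name. Identical reads make 3 pairs uncertain: let-7c-2-3p with let-7a-1-3p, miR-199b-3p with miR-199a-3p, miR-486b-5p with miR-486a-5p. Hairpins that overlap on the opposite strand in RefSeq include those of miR-451a, miR-24-3p, miR-126a-3p and miR-203-3p, whose reads cannot be told from their partners' if strand was ignored. Alternatives were other scaling (upper-quartile factors, library size only), other tools (DESeq2, limma-voom), other filters (none, or a mean of 50 reads), a replicate block, the 3 most abundant miRNAs removed, the second value, and each library left out; DESeq2 and limma-voom on the second value, identical miRNAs counted once and a spread for each source were added after seeing the data.

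Whether replicate numbers pair the libraries was checked by the correlation of deviations from the group means, which was -0.08 in plasma, so the numbers were not used as pairs.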

Additional observations from a re-analysis of the deposited data

Results flagged for a closer look

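The difference between the Exe effect in plasma vesicles and that in BAT vesicles passed an adjusted p of 0.05 in the joint edgeR fit for 68 of 234 miRNAs. Among the 10 of smallest p, the difference in log2 fold change was 4.37 for let-7c-5p, 4.26 for let-7b-5p, -4.02 for miR-27b-3p and 6.06 for miR-10b-5p; the last had 16 and 38 reads in Sed plasma. For the other 6 at least 1 plasma group had under 30 reads in all, and the fitted differences were -8.65 for miR-193b-3p, -8.08 for miR-31-5p, -8.64 for miR-203-3p, -16.22 for miR-122-3p, 11.48 for miR-486a-3p and 7.50 for miR-486b-3p.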

How the results depend on the processing

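With 2 libraries a group, the number of calls among plasma miRNAs depended on the tool and on the library left out. Against 0 in the edgeR fit as designed, it was 59 with DESeq2, 40 with limma-voom, 4 with upper-quartile factors, 10 with library size alone, 17 with no filter, 29 with a mean of at least 50 reads, 1 without the 3 most abundant miRNAs, 11 on the second value, 33 with DESeq2 on it and 10 with limma-voom on it, and 0 with identical miRNAs counted once. With a Sed library left out it was 27 (replicate 1) and 24 (replicate 2), and with an Exe library left out 27 (replicate 1) and 3 (replicate 2); the lone library was assumed to vary like the others. With the replicate number as a block edgeR called 7, and its correlation check above gave no pairing. The difference from BAT passed for 68 miRNAs, for 45 with the replicate block, 44 on the second value, 25 with limma-voom and a spread for each source, and 75 to 119 with 1 plasma library left out. The number of miRNAs with a read differed by -71.5 to 1.5 with 1 library left out.

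Over 87 named miRNAs, 1062 of the alternative values kept the direction and the side of the threshold, 228 kept the direction and passed, and 54 had the opposite sign. With upper-quartile factors these were miR-191-5p (-0.41), let-7f-5p (-0.48) and let-7i-5p (-0.58); with DESeq2 on the second value let-7i-5p (-0.34), let-7f-5p (-0.18), miR-191-5p (-0.49) and miR-429-3p (-0.0031). With library size alone they were miR-146a-5p (0.33), miR-15b-5p (0.32), miR-192-5p (0.40), miR-1a-3p (0.26) and miR-7a-5p (0.17). With limma-voom they were miR-133a-3p (-0.41), miR-15a-5p (-1.19), miR-15b-5p (1.70), miR-192-5p (0.18) and miR-215-5p (0.54), and on the second value miR-133a-3p (-0.54), miR-15a-5p (-0.33), miR-192-5p (2.32), miR-1a-3p (0.46) and miR-215-5p (2.22). With the replicate block they were miR-15a-5p (-1.17), miR-15b-5p (1.24), miR-192-5p (0.41) and miR-215-5p (1.34). On the second value miR-192-5p was at 0.45 and miR-1a-3p at 0.49. For miR-192-5p the value was also 0.45 with DESeq2 on the second value, 0.043 with no filter and 0.0073 without the 3 most abundant miRNAs. With 1 library left out the values ran from -0.95 to 0.11 for miR-122-5p, -7.65 to 9.07 for miR-133a-3p, -0.65 to 4.59 for miR-145a-5p, -0.74 to 0.29 for miR-146a-5p, -4.88 to 2.87 for miR-15a-5p, -1.47 to 4.87 for miR-15b-5p, -0.98 to 0.065 for miR-16-5p, -0.71 to 1.60 for miR-192-5p, -13.20 to 3.43 for miR-195a-5p, -2.53 to 0.30 for miR-19b-3p, -0.60 to 0.54 for miR-1a-3p, -3.64 to 7.38 for miR-215-5p, -0.96 to 0.013 for miR-21a-5p, -2.18 to 0.35 for miR-29a-3p, -8.87 to 1.61 for miR-379-5p, -1.23 to 0.87 for miR-7a-5p and -3.93 to 5.37 for miR-92b-3p. The cause of these changes was not tested. For the 10 miRNAs of the difference from BAT, 167 alternative values kept direction and call and 2 no longer passed. In the Exe libraries 93 and 70 miRNAs had 1 to 10 reads, but only 22 and 5 had 11 to 100. The sparse class of 11 to 100 reads limits what can be said of miRNAs at that level.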
